A study of Mus musculus with 81 samples.

Results

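The TCRBV13 family of mouse T-cell receptor beta chain (TCRβ) variable segments was followed across 81 libraries of blood and tumor genomic DNA from 27 mice. A rearrangement was counted as a member when it was productive (in frame), when its resolved V segment name began with TCRBV13, and when its CDR3 was not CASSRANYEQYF, the CDR3 of the transferred OT-1 cells. This gave 86805 of 378297 productive rearrangements summed over the libraries, or 22.9%. TCRBV13-01 held 21589 of them, TCRBV13-02 held 42207, TCRBV13-03 held 22951, and 58 had no resolved gene. The leaving out of the OT-1 CDR3 removed 105 family entries with 137 templates. RefSeq lists the members as the V segments Trbv13-1, Trbv13-2 and Trbv13-3, with the older synonyms Tcrb-V8.3, Tcrb-V8.2 and Tcrb-V8.1, which is why the family is also known as Vβ8. On the locus they alternate with segments of the TCRBV12 family.

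A TCRβ chain is assembled in the thymus by joining 1 V, 1 D and 1 J segment, and enzymes trim the segment ends and add nucleotides that no segment encodes (N insertions). The joined stretch encodes CDR3, the loop that contacts the peptide held by an MHC molecule, so V and J choice sets its ends and the junction its middle. Vβ8 segments are among the most used in C57BL/6 mice, and antibodies to them are a common tool for marking T cells. A rearrangement that falls out of frame makes no receptor and stays in the DNA of a cell whose other allele carries a working one.

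All mice were CD45.1 Pep Boy animals (B6.SJL-Ptprc<a> Pepc<b>/BoyJ). In the treatment experiment, 15 mice with subcutaneous EG7.OVA lymphomas, a line of EL4 cells that makes ovalbumin, each received 1e6 naive OT-1 cells. These CD8 T cells carry a transgenic receptor for an ovalbumin peptide on H-2Kb. Mice were then dosed with 1e9 unmodified mouse red blood cells (mRBC-CTRL), or with 2.5e8 or 1e9 red blood cells carrying the peptide-MHC complex, 4-1BBL and IL-12 (mRBC-OVA-4-1BBL-IL-12; arms 2.5E8 and 1E9). Blood was sequenced at day 0 (5, 5 and 4 mice of the mRBC-CTRL, 2.5E8 and 1E9 arms) and day 7 (4, 5 and 5 mice), and the tumor at day 7 (5 mice in each arm). In the rechallenge experiment, blood came from 7 mice cured of EG7.OVA by mRBC-OVA-4-1BBL-IL-12 (2.5e8 cells) given with 1e6 OT-1 cells, at days 65 and 73 around a second EG7.OVA challenge on day 66 and at days 126 and 136 around a challenge with parental EL4 on day 127. Blood of 5 age-matched naive mice given 5e5 OT-1 cells was taken at days 65 and 73 around their first EG7.OVA challenge. No library came from sorted cells, so CD4 and CD8 T cells are mixed, and EG7.OVA is itself a line of T-cell origin.

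Each library held 482 to 72971 remaining productive templates (median 6295), where a template is the assay's estimate of 1 rearranged input genome, and 285 to 17569 distinct rearrangements. The family accounted for 61 to 4145 of these rearrangements in a library. The smallest library was the day 7 blood of 1E9 mouse 5, so its shares carry the widest counting error. With OT-1 left out, a single TCRBV15 CDR3, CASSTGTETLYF, ranked first in 11 of 15 tumors. It held 70.1% ± 11.9 of remaining templates in the mRBC-CTRL arm, 39.2% ± 22.3 in the 2.5E8 arm and 10.3% ± 8.28 in the 1E9 arm (SD, n = 5 each). Since that clone sits in the denominator of every tumor template share, the family share and the largest family clones in tumors are given with and without it.

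Rearrangements that carry the results are shown first, as the 87 bases that the assay reports, 5′ to 3′. Capitals mark the CDR3 from its conserved cysteine; each read ends before the last CDR3 codon. The first 3 are the commonest nucleotide forms of the TCRBV13-02 CDR3s found in the most mice. They share the residues CASGDAG and end in those of TCRBJ02-07 or TCRBJ02-03.
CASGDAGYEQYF (TCRBV13-02, TCRBJ02-07): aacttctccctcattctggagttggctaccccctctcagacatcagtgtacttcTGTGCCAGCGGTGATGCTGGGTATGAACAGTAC
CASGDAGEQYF (TCRBV13-02, TCRBJ02-07): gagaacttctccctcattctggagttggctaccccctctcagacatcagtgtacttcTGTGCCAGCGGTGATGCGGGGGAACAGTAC
TCRBV13-02 with TCRBJ02-03, 15 residues: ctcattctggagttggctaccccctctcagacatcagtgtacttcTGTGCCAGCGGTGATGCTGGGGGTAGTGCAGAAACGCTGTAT

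The next 3 took the highest percent of templates of any family rearrangement in the 1E9 tumors, in the 1E9 day 7 blood, and in both day 7 blood and tumors of the 2.5E8 arm, in that order, and the last 4 are among the clones named below for a change around a challenge in the cured mice. Those of TCRBV13-02 begin with the residues CASG, and those of TCRBV13-01 and TCRBV13-03 with CASS.
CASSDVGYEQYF (TCRBV13-03, TCRBJ02-07): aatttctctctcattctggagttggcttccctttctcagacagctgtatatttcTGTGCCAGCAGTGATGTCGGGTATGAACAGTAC
TCRBV13-03 with TCRBJ02-04, 15 residues: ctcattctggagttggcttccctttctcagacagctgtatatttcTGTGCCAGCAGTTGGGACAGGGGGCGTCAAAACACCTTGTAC
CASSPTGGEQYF (TCRBV13-03, TCRBJ02-07): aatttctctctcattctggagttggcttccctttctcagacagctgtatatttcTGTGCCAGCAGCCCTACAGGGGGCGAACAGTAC
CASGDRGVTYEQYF (TCRBV13-02, TCRBJ02-07): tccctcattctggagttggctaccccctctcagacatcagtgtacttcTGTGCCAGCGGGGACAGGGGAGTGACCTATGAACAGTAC
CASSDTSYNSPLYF (TCRBV13-01, TCRBJ01-06): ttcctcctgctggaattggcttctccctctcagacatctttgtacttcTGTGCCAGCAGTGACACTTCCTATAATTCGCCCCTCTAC
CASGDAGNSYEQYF (TCRBV13-02, TCRBJ02-07): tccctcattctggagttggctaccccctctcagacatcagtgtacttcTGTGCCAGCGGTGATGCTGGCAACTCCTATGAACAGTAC
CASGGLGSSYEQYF (TCRBV13-02, TCRBJ02-07): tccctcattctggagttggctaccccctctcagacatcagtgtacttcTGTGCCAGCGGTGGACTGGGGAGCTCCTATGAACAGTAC

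TCRBV13 was a steady fraction of the blood repertoire. Its share of distinct rearrangements, which counts each rearrangement once whatever its clone size, lay between 20.5% and 26.0% in the 66 blood libraries, with a mean of 22.8%. The share of templates in blood averaged 22.4% and ran from 16.2% in the day 7 blood of 1E9 mouse 5 to 26.99% in cured mouse 5 after EG7.OVA. At day 0 the rearrangement share was 22.4% ± 0.639 in mRBC-CTRL (n = 5), 21.4% ± 0.618 in 2.5E8 (n = 5) and 21.6% ± 0.456 in 1E9 mice (n = 4). It was thus lower before dosing in both arms that would receive mRBC-OVA-4-1BBL-IL-12, with differences of -0.977 and -0.800 percentage points for 2.5E8 and 1E9 and exact permutation p = 0.0238 and p = 0.0397. Neither difference passed after Benjamini-Hochberg adjustment over the 15 comparisons of this measure (adjusted p = 0.198 for each, exact permutation test).

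By day 7 the rearrangement share was 22.8% ± 0.603 in mRBC-CTRL (n = 4), 23.9% ± 1.73 in 2.5E8 (n = 5) and 22.1% ± 0.895 in 1E9 mice (n = 5). In the 2.5E8 arm the values were 26.0%, 25.0%, 23.4%, 21.4% and 23.5% in mice 1 to 5, against 20.5%, 21.6%, 21.0%, 22.0% and 21.8% at day 0. The share was higher in 4 of 5 of these mice, by 2.47 percentage points on average, and with 5 pairs an exact sign-flip test cannot give less than p = 0.0625 (p = 0.125, adjusted p = 0.405). The increase did not differ detectably from that of mRBC-CTRL mice (difference 2.11 points, exact permutation p = 0.119, adjusted p = 0.714). With every library drawn down to 482 templates in a single random draw, that difference was 3.70 points (exact permutation p = 0.0159, adjusted p = 0.0952). Its spread over repeated draws was not measured. Template shares at day 7 of 22.8% ± 1.12, 22.1% ± 2.01 and 21.2% ± 3.34 in the same order of arms were not called different, with adjusted p of 0.835 for 2.5E8 and 0.804 for 1E9 by the exact permutation test. The 1E9 arm, where OT-1 made up 63.6% ± 11.6 of productive templates, had the widest spread among the remaining cells.

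Around rechallenge the family share stayed within narrow limits. In cured mice its template share was 22.7% ± 0.569 before and 23.0% ± 1.90 after EG7.OVA, then 23.5% ± 0.749 before and 23.2% ± 1.02 after EL4 (n = 7). Naive mice went from 22.5% ± 0.327 to 22.7% ± 0.932 (n = 5). The SD after EG7.OVA in cured mice came mostly from mouse 5 at 26.99%, whereas the other 6 mice lay between 21.2% and 23.4%. None of the rechallenge comparisons passed the exact tests, whose adjusted p ran from 0.469 to 0.906 over both measures. With OT-1 templates kept in the denominator 3 template comparisons of the rechallenge experiment were called by the exact tests, namely cured against naive mice before EG7.OVA (2.08 points, adjusted p = 0.00947) and after it (-4.99 points, adjusted p = 0.0492), and cured mice around EG7.OVA (-4.72 points, adjusted p = 0.0492). The family excludes OT-1, so in that setting its share falls wherever the OT-1 share rises. These 3 calls therefore do not show a change of the family among the remaining cells. The sign of the small EG7.OVA change in cured mice turned from 0.323 to -0.436 points once the largest TCRBV13 rearrangement of each library was set aside.

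**Figure D1:**
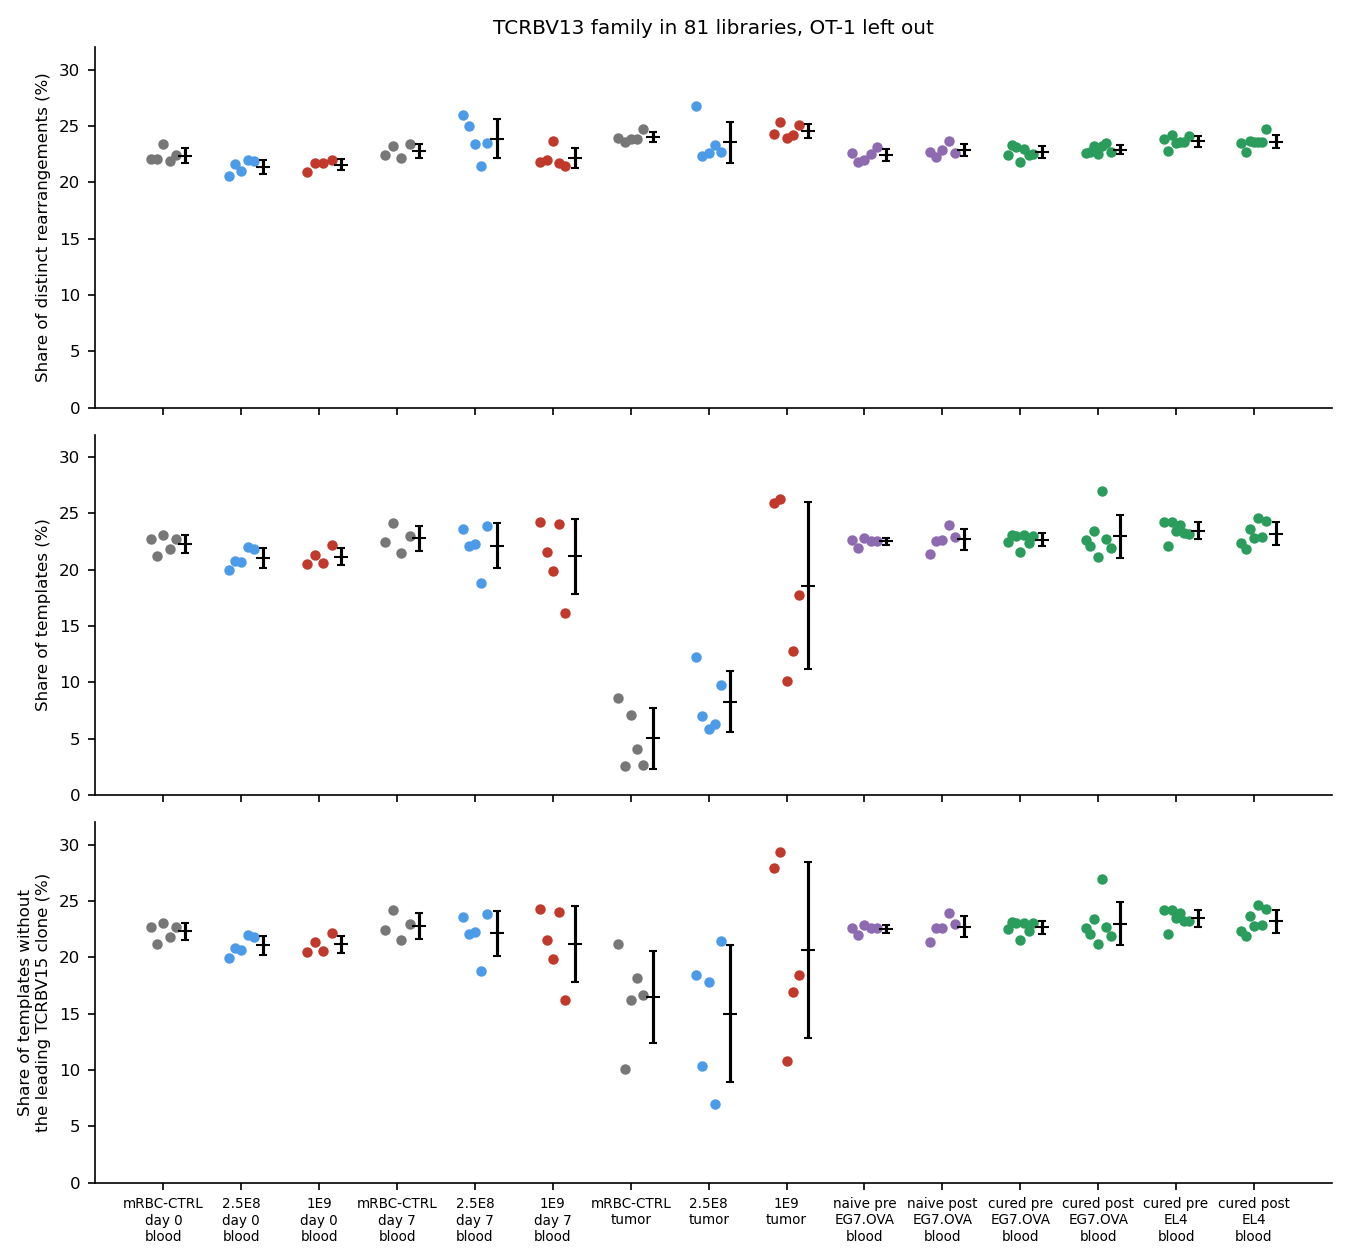
Share of the TCRBV13 family among remaining productive rearrangements (top), among templates (middle) and among templates with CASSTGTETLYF also left out (bottom), in percent, for 15 groups of libraries. Each point is 1 library, bars give the mean ± SD, and the tumor template shares spread from 2.62% to 26.3% while rearrangement shares stay between 20.5% and 26.7% in every group.

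The tumors stood apart by templates but much less by rearrangements. In mRBC-CTRL tumors the family held 8.66%, 2.62%, 7.10%, 4.09% and 2.70% of templates in mice 1 to 5, for a mean of 5.03% ± 2.72. The 2.5E8 tumors held 12.3%, 7.05%, 5.87%, 6.35% and 9.81% (8.27% ± 2.71), and the 1E9 tumors 25.9%, 26.3%, 10.1%, 12.8% and 17.8% (18.6% ± 7.41). Every 1E9 tumor was above every mRBC-CTRL tumor, and the 2.5E8 tumors overlapped both arms. The 1E9 difference of 13.5 percentage points gave the smallest p that 5 against 5 allows in an exact permutation test, p = 0.00794, and an adjusted p of 0.0595, which did not pass at 0.05. For 2.5E8 the difference of 3.24 points was within the spread (exact permutation p = 0.103, adjusted p = 0.310).

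With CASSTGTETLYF left out, the same tumors held 16.5% ± 4.08, 15.01% ± 6.05 and 20.7% ± 7.81 of templates in the mRBC-CTRL, 2.5E8 and 1E9 arms. The single values then ran from 10.05% to 21.2%, from 6.99% to 21.4% and from 10.8% to 29.3%, and the 3 arms overlapped. The 2.5E8 difference from mRBC-CTRL turned from 3.24 to -1.42 points.

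Against the day 7 blood of the same mouse, tumor template share was lower in 11 of 14 mice, by 11.2 points on average (10.8% against 22.0%; exact sign-flip test, p = 0.000977, adjusted p = 0.0146). The 3 exceptions were 1E9 mice 1, 2 and 5. The mean change was -18.7 ± 1.64 points in mRBC-CTRL (n = 4), -13.9 ± 2.02 in 2.5E8 (n = 5) and -2.61 ± 7.36 in 1E9 mice (n = 5). Without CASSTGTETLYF the average change was -4.89 points and was no longer called (adjusted p = 0.190 by the exact sign-flip test). The rearrangement share went the other way, from 22.9% in blood to 24.0% in tumor. It was higher in the tumor of 11 of 14 mice, by 1.10 points (exact sign-flip p = 0.0352, adjusted p = 0.198), and the mean difference turned to -0.474 points when every library was drawn down to the 482 templates of the smallest. Over all 15 tumors it averaged 24.0% (22.3% to 26.7%), with 24.0% ± 0.450, 23.5% ± 1.82 and 24.6% ± 0.600 in the mRBC-CTRL, 2.5E8 and 1E9 arms.

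TCRBV13-02 was the most used member in 81 of 81 libraries, and TCRBV13-03 was above TCRBV13-01 in 59. TCRBV13-02 was also the most used of all V segments in blood, with 11.1% of rearrangements (9.48% to 14.4% over 66 libraries), and TCRBV03-01 followed at 7.72%. In tumors TCRBV13-02 was again first at 12.6%. Averaged by mouse over its blood libraries, TCRBV13-02 held 11.1% ± 0.476, TCRBV13-03 6.01% ± 0.374 and TCRBV13-01 5.53% ± 0.342 of rearrangements (n = 27 mice).

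Between tumor and day 7 blood the members moved unevenly. The rearrangement share of TCRBV13-02 went from 11.5% ± 1.27 to 12.7% ± 1.08 on average and was higher in 11 of 14 tumors. TCRBV13-01 went from 5.46% to 5.62% (higher in 9 of 14) and TCRBV13-03 from 5.96% to 5.66% (higher in 5 of 14). In 2.5E8 blood from day 0 to day 7, TCRBV13-02 went from 10.4% ± 0.672 to 12.6% ± 1.40 and was higher in 4 of 5 mice, and TCRBV13-01 from 5.25% ± 0.182 to 5.77% ± 0.322 and was higher in 5 of 5. TCRBV13-03 went from 6.43% to 6.20% around EL4 in cured mice and was lower in 7 of 7. These member shares are given as values, with the test made on counts below.

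**Figure D2:**
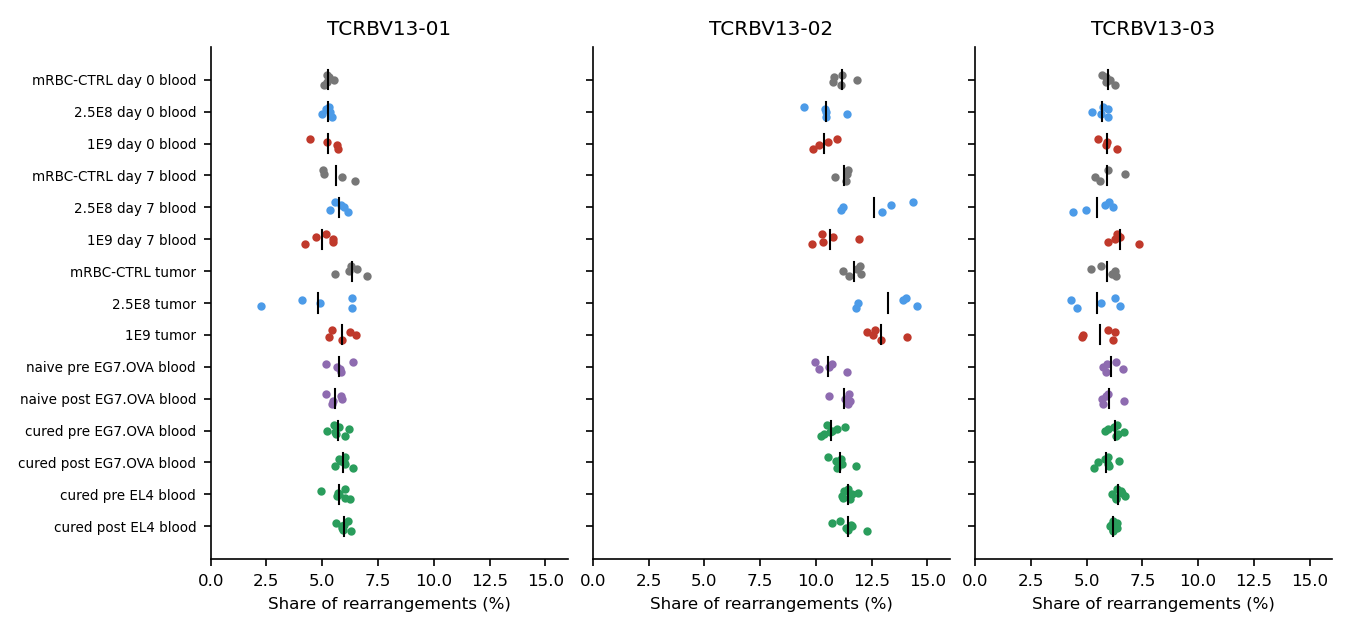
Share of remaining productive rearrangements (percent, x axis) that used TCRBV13-01, TCRBV13-02 or TCRBV13-03 in 15 groups of libraries. Points are libraries and black lines group means; TCRBV13-02 lies between 9.48% and 14.5% in all groups, to the right of both other members, and is widest in the 2.5E8 arm.

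On template counts summed per V segment, edgeR's quasi-likelihood test called no TCRBV13 member in 15 comparisons (0 of 45 tests at an adjusted p under 0.05; lowest adjusted p = 0.137), and DESeq2 called none either. At an unadjusted p under 0.05 there were 3 of 45. Over all V segments tested the share called was 9.52% for 1E9 against mRBC-CTRL tumors, 19% for tumor against day 7 blood, 4.35% for mRBC-CTRL and also for 2.5E8 from day 0 to 7, 4.35% for cured mice around EG7.OVA, 9.09% for naive mice around EG7.OVA, and 0% in the other 9 comparisons. The 3 unadjusted results were TCRBV13-02 in 1E9 against mRBC-CTRL blood at day 0 (log2 fold change -0.16, SE 0.0598, edgeR adjusted p = 0.144), TCRBV13-02 in naive mice around EG7.OVA (0.12, SE 0.0546, edgeR adjusted p = 0.137) and TCRBV13-03 in cured mice around EL4 (-0.08, SE 0.0385, edgeR adjusted p = 0.349). In blood the 3 members' log2 fold changes lay between -0.16 and 0.25. In 1E9 against mRBC-CTRL tumors they were 0.38 for TCRBV13-01, -0.43 for TCRBV13-02 and 0.80 for TCRBV13-03, beside -4.66 for TCRBV15-01 (edgeR adjusted p = 1.76e-05).

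The member calls in tumors depended on scaling. With library totals in place of TMM scaling, TCRBV13-01 and TCRBV13-03 were called higher in 1E9 than in mRBC-CTRL tumors, and all 3 members were called lower in tumor than in day 7 blood. Counting distinct rearrangements, edgeR called TCRBV13-02 higher at day 7 than at day 0 in the 2.5E8 arm (log2 fold change 0.31, adjusted p = 0.00941), where 19% of all V segments tested were called. By this count no member was called in the other 14 comparisons, in which the share called was 4.55% for 1E9 against mRBC-CTRL at day 7, 47.6% for tumor against day 7 blood, 4.76% for naive mice around EG7.OVA, 9.52% for cured against naive mice after EG7.OVA and for 1E9 mice from day 0 to 7, and 0% in 9. Without a filter on low counts TCRBV13-02 was called lower in 1E9 than in mRBC-CTRL blood at day 0 (log2 fold change -0.21, edgeR adjusted p = 0.00556).

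Non-productive rearrangements, counted here as those marked out of frame, gave a comparison that the choice of members did not use. In blood the family held 22.6% ± 0.633 of productive and 18.9% ± 0.951 of non-productive rearrangements, a ratio of 1.20 ± 0.0560, and the productive share was higher in 27 of 27 mice. The difference of 3.75 percentage points gave p = 1e-05, the smallest that the sign-flip permutation test with 100000 resamples can give (adjusted p = 2.5e-05). The ratio was 1.11 ± 0.0908 for TCRBV13-01 (productive higher in 23 of 27 mice), 1.19 ± 0.0648 for TCRBV13-02 (27 of 27) and 1.34 ± 0.135 for TCRBV13-03 (27 of 27). In percentage points, TCRBV13-01 gained less than TCRBV13-02 (0.511 against 1.73, adjusted p = 5e-05) and less than TCRBV13-03 (1.496, adjusted p = 5e-05) by the permutation test over mice, while TCRBV13-02 and TCRBV13-03 did not differ beyond their spread (adjusted p = 0.100). In the 15 tumors the family was also higher among productive rearrangements in 15 of 15, by 4.98 ± 2.70 points (permutation test, adjusted p = 0.00025). Counted by templates that tumor difference was 1.75 points and was not called.

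The germline end of each V segment was visible in the first CDR3 residues. In blood, 95.9% ± 0.845 of TCRBV13-02 rearrangements opened with CASG, and CASS opened 86.0% ± 2.97 of TCRBV13-01 and 81.3% ± 2.22 of TCRBV13-03 rearrangements (n = 27 mice). The opening CASG was found in 0.956% ± 0.517 of TCRBV13-01 and 1.23% ± 0.732 of TCRBV13-03 rearrangements.

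Family CDR3s had nearly the length of those of other V segments but fewer N insertions. The mean CDR3 length was 13.87 ± 0.0587 residues for the family and 13.90 ± 0.0220 for other V segments, and the family differed by -0.0315 residues (longer in 7 of 27 mice; permutation test, adjusted p = 0.0190). N insertions averaged 3.30 ± 0.0612 nucleotides in the family and 3.46 ± 0.0684 in other V segments, lower by 0.159 nucleotides in 25 of 27 mice (permutation test, adjusted p = 2.5e-05). In tumors the same difference was 0.215 nucleotides, with 3.45 ± 0.170 against 3.67 ± 0.133 (lower in 13 of 15; permutation test, adjusted p = 0.0115), and it was not called by templates or without single-template rearrangements.

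Counted by distinct rearrangements, the members differed more from each other in length than the family did from the rest. Weighted by templates, 3 of the differences called between members over all features lost their call. TCRBV13-02 CDR3s averaged 13.95 ± 0.0682 residues, TCRBV13-01 13.85 ± 0.0989 and TCRBV13-03 13.75 ± 0.0743, and TCRBV13-02 was longer than TCRBV13-03 in 27 of 27 mice, by 0.206 residues (permutation test, adjusted p = 5e-05). The other 2 pairs also passed, with TCRBV13-01 shorter than TCRBV13-02 by 0.106 residues (adjusted p = 0.000112) and longer than TCRBV13-03 by 0.100 residues (adjusted p = 0.00021) in the permutation test. In tumors TCRBV13-02 exceeded TCRBV13-03 by 0.303 residues in 14 of 15 mice (permutation test, adjusted p = 0.0018). TCRBV13-01 exceeded TCRBV13-03 there by 0.271 residues (permutation test, adjusted p = 0.00525). The tumor difference of TCRBV13-01 from TCRBV13-02 was -0.0327 residues and was not called (permutation test, adjusted p = 0.736). N insertions did not separate the members, at 3.34, 3.29 and 3.29 nucleotides for TCRBV13-01, TCRBV13-02 and TCRBV13-03 (lowest adjusted p = 0.275 of the 3 pairs).

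J pairing was close to that of the rest of the repertoire. TCRBJ02-07 was joined to 19.96% ± 0.909 of family rearrangements, TCRBJ02-05 to 12.1% ± 1.09 and TCRBJ01-01 to 9.93% ± 0.934, and the least joined segment over all libraries was TCRBJ01-07 with 1 of 86784 rearrangements. Segments of the J1 cluster took 35.8% ± 2.05 of family and 36.7% ± 1.10 of other rearrangements, lower by 0.921 points (higher in 10 of 27 mice; permutation test, adjusted p = 0.0327), and that call was lost by templates and without single-template rearrangements. Within the family TCRBV13-02 used J1 least, at 34.5% ± 2.68 against 37.7% ± 3.18 for TCRBV13-03 (permutation test, adjusted p = 0.000375) and 36.2% ± 2.95 for TCRBV13-01 (permutation test, adjusted p = 0.0148). In tumors none of the J1 differences was called.

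**Figure D3:**
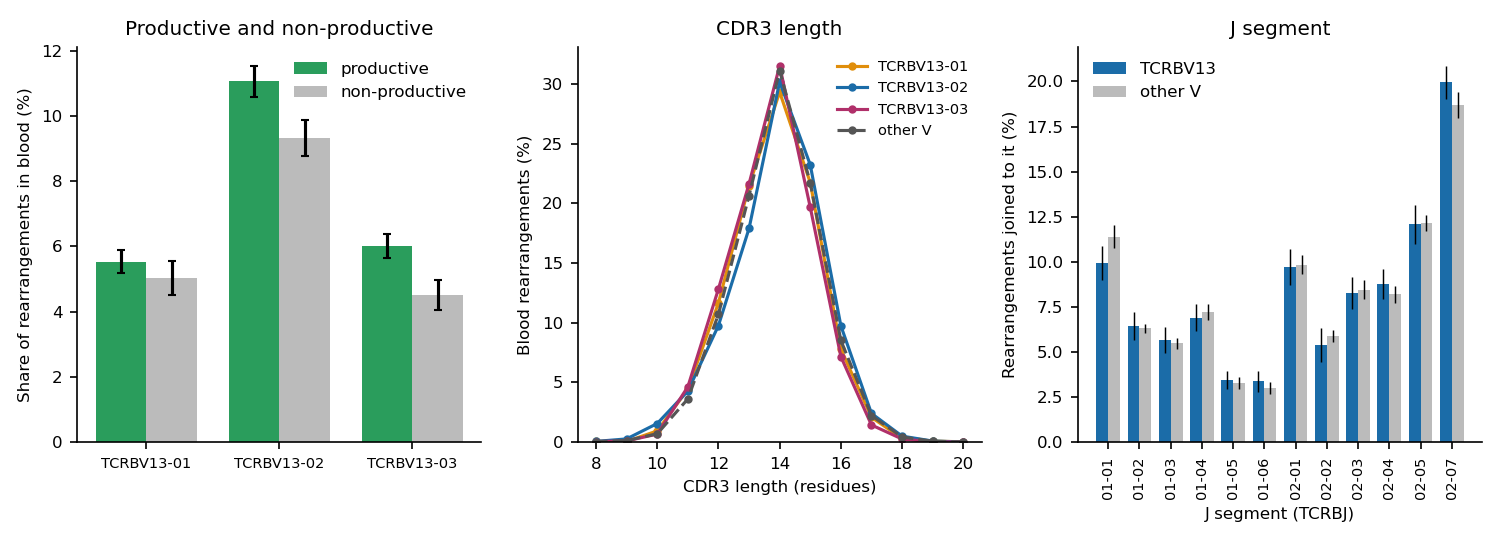
Left, share of productive and of non-productive blood rearrangements held by each member (percent, mean ± SD over 27 mice). Centre, CDR3 length in residues of blood rearrangements (percent of each member or of all other V segments); right, share joined to each J segment (percent, mean ± SD over 27 mice) for the family and for other V segments. TCRBV13-02 is shifted to longer CDR3s than TCRBV13-03, and TCRBJ02-07 is the most used J in both groups.

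Templates per rearrangement were lower in the family than in the rest of the tumor repertoire, and such a difference was not called in blood. In blood 1 rearrangement had on average 1.40 ± 0.107 templates in the family and 1.43 ± 0.120 in other V segments (permutation test over 27 mice, adjusted p = 0.160). Within the family TCRBV13-02 was lowest at 1.35 ± 0.0767, against 1.43 ± 0.145 for TCRBV13-01 and 1.46 ± 0.205 for TCRBV13-03 (adjusted p = 0.000825 for each pair by the permutation test). In tumors, with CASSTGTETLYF left out, the family had 3.27 ± 0.793 and other V segments 5.48 ± 1.96 templates per rearrangement. The family was lower in 13 of 15 tumors (permutation test, adjusted p = 0.00127).

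Across the 66 blood libraries the V segments whose rearrangement share moved most like that of the family were TCRBV29-01 (Spearman rho = 0.36), TCRBV04-01 (0.20) and TCRBV14-01 (0.18). Between members rho lay between -0.03 and 0.19. Shares of 1 library sum to a whole and several libraries come from each mouse, so these values are descriptions without a test.

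Within the family, the CDR3s that recurred in most mice belonged to TCRBV13-02 and had short junctions. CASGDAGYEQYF was found in 22 of 27 mice, as 25 different nucleotide rearrangements with 101 templates in all, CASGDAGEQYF in 18 mice and the 15-residue form with TCRBJ02-03 in 17. Mean N insertions were 0.857, 0.689 and 1.22 nucleotides for these CDR3s. Of 64028 distinct family CDR3s, 87 were found in at least 10 mice, 74 of them with TCRBV13-02, 7 with TCRBV13-01 and 6 with TCRBV13-03. Other V segments had 152 of 229808, and their most widespread CDR3 was found in 25 mice. As a share of distinct CDR3s this was 0.262% for TCRBV13-02, 0.0401% for TCRBV13-01, 0.0327% for TCRBV13-03 and 0.0661% for other V segments, while 86.8% of family CDR3s and 88.1% of others were seen in 1 mouse.

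The largest TCRBV13 rearrangement of a library took 0.0408% to 5.65% of remaining templates in blood (median 0.136%) and 0.188% to 12.4% in tumors (median 1.75%). It reached at least 1% in 7 of 66 blood libraries and 11 of 15 tumors, or 13 of 15 without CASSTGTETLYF. At day 0 the medians were 0.120%, 0.0810% and 0.106% in the mRBC-CTRL, 2.5E8 and 1E9 arms, and at day 7 they were 0.268%, 0.742% and 1.32%. The tumor medians of 0.451%, 1.84% and 3.99% had the same order. With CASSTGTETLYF left out of the denominator, the tumor medians were 2.41%, 4.03% and 4.45%, and the ranges of 0.723% to 4.28%, 0.541% to 5.72% and 1.44% to 13.4% overlapped between the 3 arms. These maxima also move with the number of templates in a library, whose group means at day 7 were 6953 templates in mRBC-CTRL, 3364 in 2.5E8 and 3816 in 1E9 blood, and 55947, 17951 and 3613 in the tumors. The part of depth in them was not tested.

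In 1E9 mouse 1 the TCRBV13-03 rearrangement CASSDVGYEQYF held 398 of 3204 remaining tumor templates (12.4%, 95% Wilson interval 11.3% to 13.6%). It ranked first in that tumor among the rearrangements that remained with OT-1 left out. Without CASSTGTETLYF its share was 13.4%. It held 83 of 4480 templates in the day 7 blood (1.85%; 1.497% to 2.29%). That mouse has no day 0 library here.

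In 1E9 mouse 4 the rearrangement of TCRBV13-03 with TCRBJ02-04 printed above went from 1 of 4817 templates at day 0 to 305 of 6579 in blood at day 7 (4.64%; 4.15% to 5.17%) and 238 of 5615 in the tumor (4.24%; 3.74% to 4.80%). In 2.5E8 mouse 1 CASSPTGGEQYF had 0 of 7417 templates at day 0, which allows a share of up to 0.0404%, then 42 of 3668 in blood (1.15%) and 634 of 20674 in the tumor (3.07%). Of the mRBC-CTRL tumors, mouse 1 had the largest family clone, a TCRBV13-02 rearrangement with 713 of 40749 templates (1.75%). Without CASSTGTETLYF these tumor shares were 5.61% in 1E9 mouse 4, 4.60% in 2.5E8 mouse 1 and 4.28% in mRBC-CTRL mouse 1, and the highest of the 2.5E8 arm was then a TCRBV13-03 clone of mouse 3 at 5.72%. Wilson intervals and the limit of 3 templates for a count of 0 cover counting error only.

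The largest family rearrangement of a tumor was usually present in the same mouse's blood at day 7 and rarely before. It was found in day 7 blood in 13 of 14 mice and in day 0 blood in 2 of 14. The day 0 findings, in 1E9 mouse 4 and 2.5E8 mouse 2, were 1 template each. So were the day 7 findings in 1E9 mouse 2 and 2.5E8 mouse 4. The exception at day 7 was 1E9 mouse 5, whose tumor was led within the family by TCRBV13-01 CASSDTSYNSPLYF (141 of 4008 templates, 3.52%, or 3.64% without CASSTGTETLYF) and whose blood library was the smallest. By templates, 32.5% ± 9.18, 43.5% ± 15.4 and 45.3% ± 22.1 of the family's tumor content in the mRBC-CTRL (n = 4), 2.5E8 (n = 5) and 1E9 (n = 5) arms consisted of rearrangements also seen in day 7 blood. For other V segments without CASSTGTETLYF the values were 60.9% ± 5.66, 67.0% ± 14.6 and 60.9% ± 19.2. The difference between the family and other V segments was not tested.

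To count single clones that changed in blood, each rearrangement with at least 5 templates in 2 libraries of a mouse was compared by Fisher's exact test with adjustment within the mouse; the test compares those libraries and not the conditions. From day 0 to day 7 the family clones called higher were 9 of 28 tested in mRBC-CTRL mice (32.1% of all clones tested were called higher), 30 of 46 in 2.5E8 mice (61.2%) and 27 of 38 in 1E9 mice (61%). Clones called lower were 5 of 28 (6.6%), 1 of 46 (1.53%) and 0 of 38 (1.69%). A clone had to gather 5 templates over the 2 libraries together to be tested at all, so clones absent on both days are not in these counts. Most family clones called higher were absent at day 0 and so passed this filter through their day 7 templates alone. The counts called higher therefore depend on the filter. The 30 of the 2.5E8 arm became 19 at equal depth and 9 with a minimum of 10 templates.

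The mRBC-CTRL calls were spread over all 4 mice and led by a TCRBV13-02 clone of mouse 2, which went from 2 of 4954 to 27 of 5877 templates (0.0404% to 0.459%; Fisher's exact test, adjusted p = 6.57e-05). In 2.5E8 mice 19 of 25 tested clones of TCRBV13-02, 4 of 9 of TCRBV13-03 and 7 of 12 of TCRBV13-01 were called higher. In 1E9 mice these were 9 of 12, 8 of 12 and 10 of 14, and differences between members were not tested. The TCRBV13-03 with TCRBJ02-04 clone of 1E9 mouse 4 had the smallest adjusted p of the treatment experiment, at 9.38e-71, followed by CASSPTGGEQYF at 9.37e-20 (both by Fisher's exact test).

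Around rechallenge, 8 of 49 family clones in cured mice were called higher after EG7.OVA (26.4% of all clones tested) and 0 of 49 lower (1.04%). In naive mice 3 of 11 were called higher (15.7%) and 0 of 11 lower (21.6%). Around EL4, 6 of 108 in cured mice were called higher (8.36%) and 21 of 108 lower (14.9%), of which TCRBV13-02 had 15 of its 63 tested clones, TCRBV13-01 5 of 28 and TCRBV13-03 1 of 17. Most of these 21 lower calls, and most of those of TCRBV13-02, came from cured mouse 4 alone. Its clones called lower had at most 8 templates before EL4 and none after. The count of 8 around EG7.OVA and that of 21 around EL4 moved with the settings. The 8 and the 21 were 4 and 1 with at least 10 templates per clone, and with both libraries of a pair drawn to equal depth 5 and 1. Depth differed around EL4, with a mean of 9577 remaining templates before and 13739 after.

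The clone with the clearest rise was TCRBV13-02 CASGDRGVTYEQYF in cured mouse 5. It held 27 of 8395 templates at day 65 (0.322%; 0.221% to 0.468%) and 283 of 5010 at day 73 (5.65%; 5.04% to 6.32%), with an adjusted p of 4.36e-89 by Fisher's exact test. It then held 105 of 11939 at day 126 (0.879%) and 174 of 22115 at day 136 (0.787%), so it was the largest family clone of the cured group at all 4 times. This rearrangement was seen in no other mouse, and its templates are part of the 26.99% that the family held in this mouse at day 73.

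TCRBV13-01 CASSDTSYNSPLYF in cured mouse 6 went from 23 of 11446 (0.201%) to 104 of 8154 templates (1.28%) around EG7.OVA (Fisher's exact test, adjusted p = 5.88e-19), and was at 0.337% and 0.203% before and after EL4. The third EG7.OVA call with the smallest adjusted p was TCRBV13-02 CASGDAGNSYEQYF in cured mouse 5, with 0 of 8395 and 8 of 5010 templates (0.160%; Fisher's exact test, adjusted p = 0.00266). It was not seen in that mouse at the later times. Cured mouse 1 held the identical nucleotide rearrangement at 22 of 5634 templates on the same day, and a carry-over of templates between libraries was not tested.

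Around EL4 the smallest adjusted p belonged to TCRBV13-02 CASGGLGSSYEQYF in cured mouse 7, absent from 11991, 4693 and 10973 templates at the 3 earlier times and then at 30 of 9169 (0.327%; Fisher's exact test, adjusted p = 3.7e-09). TCRBV13-01 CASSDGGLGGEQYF of cured mouse 6 was likewise at 0 in the 3 earlier libraries and at 36 of 14264 templates on day 136 (0.252%; Fisher's exact test, adjusted p = 1.47e-08). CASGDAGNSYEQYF in cured mouse 1 went from 6 of 7849 to 52 of 9334 templates around EL4 (0.0764% to 0.557%; Fisher's exact test, adjusted p = 8.25e-08) and had held 0.0922% and 0.390% before and after EG7.OVA. It was thus higher after each challenge than before it in this mouse.

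**Figure D4:**
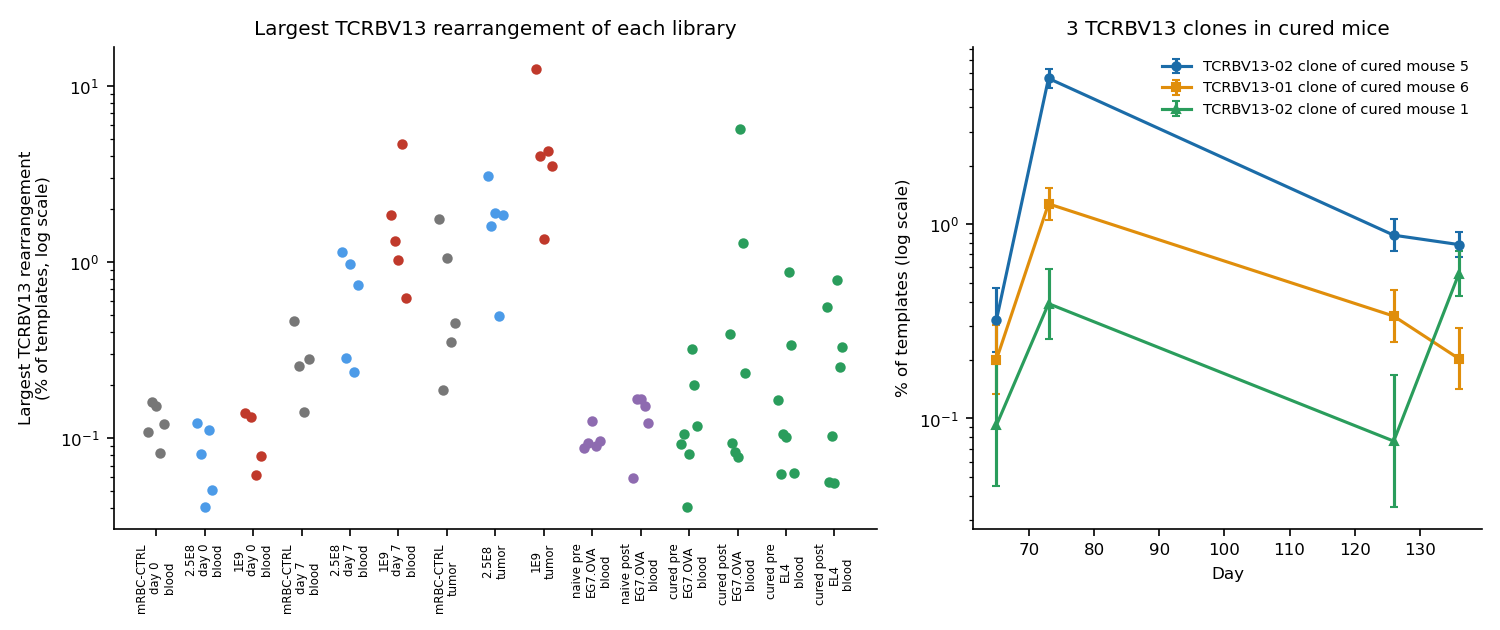
Left, the largest TCRBV13 rearrangement of each of 81 libraries as a percent of remaining templates (log scale), by group; values reach 12.4% in 1E9 tumors and 5.65% in cured blood after EG7.OVA. Right, 3 TCRBV13 clones of cured mice 5, 6 and 1 (percent of templates, log scale) over days 65 to 136 with 95% Wilson intervals; all 3 are higher at day 73 than at day 65.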

How the data were processed

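TCRβ CDR3 sequencing (immunoSEQ) was analysed in 81 libraries of genomic DNA from mouse blood or digested tumor. CDR3 regions were amplified by the authors with a multiplex PCR designed to limit primer bias, and the reads were collapsed and filtered by the assay's software (a genome build is not given in the sources used here). For each nucleotide rearrangement the authors deposited a raw template count and, under a column name that says percent, its fraction of the library. Count and fraction matched in 81 of 81 libraries, and so did count and estimated genomes. The other deposited columns used are the V and J calls, the CDR3, its start and the N insertions. PCR collapsing by the assay precedes these counts, so its errors are carried into them.

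The members and lists were chosen with earlier results of these data known. Shares were taken over productive rearrangements without the OT-1 CDR3. Groups were compared by 2-sided exact permutation tests, libraries of a mouse by 2-sided exact sign-flip tests, and family features by sign flips over mice with 100000 resamples; Benjamini-Hochberg adjustment at 0.05 was applied over the 15 comparisons of a measure, or over the features. V segments with at least 10 templates in as many libraries as the smaller group were tested with edgeR 4.0.16 in R 4.3.3 (TMM, mouse as a block within mice), with DESeq2 1.42.0 as an alternative. Clones were tested by Fisher's exact test at a minimum of 5 templates. Python 3.11.15, pandas 2.3.3 and scipy 1.17.1 were used.

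The clone test was tested on simulated data from 6 pairs of blood libraries: 150 of 184 tested clones raised 8-fold and 32 of 182 raised 3-fold were called higher, while of unchanged clones 0 of 1470 were called when no clone was raised and 5 of 1143 when others were raised 8-fold. Both simulated libraries of a pair were drawn from the same pooled frequencies. They hold counting noise only, so false calls from other variation between real libraries were not measured. The rule for names took the 3 members, the 3 V segments most like the family, the 3 most and 1 least joined J segments, the largest family clone of each group, the 3 CDR3s in the most mice, and up to 3 clones called higher around each challenge. Each library is a separate animal or time; mice of different groups that share a number are not the same animal, and deviations from their group means correlated at 0.04 and 0.02 for the template and rearrangement shares (37 pairs). Libraries of a mouse were linked by the mouse number in the labels, and 1 label worded differently was read by its animal code. Of rearrangements with at least 3 templates in each library of a pair, 65 of 81 libraries shared most with another library of the same mouse, and the other 16 shared 3 or fewer with any mouse. Most naive libraries and several day 0 libraries were among these 16. Naive mice 1 and 5 shared 0 such rearrangements between their own libraries. For these mice the link rests on the labels alone. Alternatives were other denominators, templates or distinct CDR3s, thinning to 482 templates, other filters, scalings and tools, and leaving out each replicate. Each thinning was a single random draw, and the spread over draws was not measured.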

Additional observations from a re-analysis of the deposited data

Results flagged for a closer look

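In 11 of 120 sets of values (8 measures in 15 groups), the highest or lowest mouse stood apart from the rest of its group by Dixon's criterion; chance alone would mark about 1 in 20 sets, and the sets overlap because member shares add up to the family share. After EG7.OVA, cured mouse 5 had a family template share of 26.99% against 21.2% to 23.4% in the other mice, and a TCRBV13-02 template share of 15.7% against 10.4% to 10.9%. Its largest family clone, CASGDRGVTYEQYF, held 5.65% of its templates. In the 1E9 tumors the TCRBV13-02 template share of mouse 2 was 13.3% against 3.92% to 6.30%, in a library of 927 remaining templates.

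The family rearrangement share was highest in mouse 1 of the 2.5E8 tumors (26.7% against 22.3% to 23.3%), mouse 5 of the mRBC-CTRL tumors (24.8% against 23.6% to 23.9%) and mouse 3 of the 1E9 day 7 blood (23.7% against 21.4% to 21.9%). TCRBV13-02 had the lowest rearrangement share in mouse 4 of the mRBC-CTRL day 7 blood (10.9% against 11.3% to 11.4%) and in mouse 2 of the naive blood after EG7.OVA (10.6% against 11.3% to 11.5%). TCRBV13-03 had the highest rearrangement share in naive mouse 4 after EG7.OVA (6.67% against 5.68% to 5.96%) and the highest template share in mouse 5 of the 1E9 day 0 blood (7.36% against 5.69% to 5.94%). TCRBV13-01 had the lowest template share in cured mouse 2 before EL4 (4.79% against 5.75% to 6.41%).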

How the results depend on the processing

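Values are percentage points for shares, log2 fold changes for members and counts for V segments or clones; the value of the report stands in brackets. The lower tumor template share against day 7 blood was called with OT-1 left out and lost its call once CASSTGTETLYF left the denominator, at -4.89 [-11.2], where 2.5E8 against mRBC-CTRL tumors turned to -1.42 [3.24]. With OT-1 kept in the denominator, 1E9 against mRBC-CTRL blood at day 7 was -14.0 [-1.60] and cured against naive before EG7.OVA 2.08 [0.151], both then called. In that setting 1E9 against mRBC-CTRL tumors turned to -0.571 [13.5], cured mice around EL4 to 0.191 [-0.265], and 2 values turned and were then called, cured against naive after EG7.OVA at -4.99 [0.289] and cured mice around EG7.OVA at -4.72 [0.323]. The setting itself adds OT-1 templates to the denominator, and the family excludes them. Leaving out the largest family rearrangement turned cured against naive after EG7.OVA to -0.472 and cured mice around EG7.OVA to -0.436.

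Without rearrangements of 1 template, template shares turned to -0.180 [0.151] for cured against naive before EG7.OVA and -0.697 [0.184] for naive mice around it. Rearrangement shares turned to -0.0284 [1.06] for 2.5E8 against mRBC-CTRL at day 7, -1.32 [0.574] for 1E9 against mRBC-CTRL tumors, -0.240 [0.237] for cured against naive before EG7.OVA, -0.339 [0.253] for cured and -0.923 [0.417] for naive mice around it. Thinned to 482 templates, the template share turned to 0.394 [-0.656] for 2.5E8 against mRBC-CTRL at day 7 and -1.35 [0.594] for mRBC-CTRL from day 0 to 7. The 1E9 minus mRBC-CTRL difference between changes turned to 0.622 [-1.33]. For the rearrangement share, the 2.5E8 minus mRBC-CTRL difference between changes was 3.70 [2.11] and not called. The thinned rearrangement share turned to -2.74 [0.574] for 1E9 against mRBC-CTRL tumors, -0.900 [0.359] for mRBC-CTRL from day 0 to 7 and -0.474 [1.10] for tumor against blood. By distinct CDR3s, 1E9 against mRBC-CTRL tumors turned to -0.135 [0.574] and cured mice around EL4 to 0.100 [-0.0341]. Leaving out small variants of a 20-fold larger rearrangement, a setting chosen after seeing the data like that of the largest tumor clones without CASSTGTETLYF, kept every share on its side of zero and of the threshold. None of the turned values was called on both sides; the cause was not tested.

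V segments called, over all segments, changed as follows. Without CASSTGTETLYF there were 0 [2] for 1E9 against mRBC-CTRL tumors and 2 [4] for tumor against blood. DESeq2 gave 2 [0] for 2.5E8 against mRBC-CTRL at day 7, 3 [0] for their tumors, 2 [1], 3 [1] and 4 [0] for mRBC-CTRL, 2.5E8 and 1E9 from day 0 to 7, and 0 [1] and 1 [2] for cured and naive mice around EG7.OVA. By distinct rearrangements there were 1 [0] for 1E9 against mRBC-CTRL at day 7, 0 [2] for their tumors, 2 [0] for cured against naive after EG7.OVA, 0 [1], 4 [1] and 2 [0] for mRBC-CTRL, 2.5E8 and 1E9 from day 0 to 7, 10 [4] for tumor against blood, and 0 [1] and 1 [2] for cured and naive mice around EG7.OVA. In that setting TCRBV13-01, TCRBV13-02 and TCRBV13-03 turned to -0.086, 0.18 and -0.075 in 1E9 against mRBC-CTRL tumors, to 0.011, 0.046 and -0.090 for tumor against blood, and TCRBV13-03 to -0.039 for 2.5E8 from day 0 to 7.

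Without TMM there were 15 [2] for 1E9 and 4 [0] for 2.5E8 against mRBC-CTRL tumors, 2 [1] for mRBC-CTRL from day 0 to 7 and 19 [4] for tumor against blood. TCRBV13-02 turned to 1.22 in 1E9 against mRBC-CTRL tumors, and TCRBV13-03 to -0.057 for 2.5E8 from day 0 to 7 and to -1.29 for tumor against blood. Without a filter there were 1 [0] for 1E9 against mRBC-CTRL at day 0, 4 [2] for their tumors, 1 [0] for cured against naive before EG7.OVA, 3 [1] and 1 [0] for 2.5E8 and 1E9 from day 0 to 7, and 0 [1] and 1 [2] for cured and naive mice around EG7.OVA. Without the replicate block, which is the mouse in comparisons within mice, there were 2 [1] and 1 [0] for mRBC-CTRL and 1E9 from day 0 to 7, and 0 [1] and 1 [2] for cured and naive mice around EG7.OVA. With the replicate number as a block between arms, whose mice share only a number, 1E9 against mRBC-CTRL tumors gave 1 [2]; the block changed no other count by over 1.5 times.

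TCRBV13 clones called lower from day 0 to 7 in mRBC-CTRL mice [5] were 3 with OT-1 kept, 0 at an adjusted p of 0.01, 0 at 10 templates and 1 at equal depth. In 2.5E8 mice the 1 lower clone became 0 with OT-1 kept, at 0.01 and at 10 templates, and the higher clones [30] were 9 at 10 templates and 19 at equal depth. In cured mice around EG7.OVA the higher clones [8] were 4 with OT-1 kept, at 0.01 and at 10 templates and 5 at equal depth, and lower clones [0] were 1 with OT-1 kept and at equal depth. Lower clones around EL4 [21] were 1 at 0.01, at 10 templates and at equal depth, and higher clones in naive mice [3] were 1 with OT-1 kept and otherwise 0. Weighted by templates, the family J1 difference was -0.777 [-0.921] points in blood and -0.113 [1.23] in tumors, tumor N insertions -0.201 [-0.215], tumor CDR3 length 0.0541 [-0.0675] residues and the tumor productive excess 1.75 [4.98] points. Between members in tumors J1 turned to -3.54 [3.64] for TCRBV13-01 against TCRBV13-02 and 10.5 [-0.814] for TCRBV13-02 against TCRBV13-03, N insertions to 0.096 [-0.0107] for the first pair, and the productive excess to -2.71 [0.731] for the second. Also weighted by templates, 3 differences called between members lost their call, over length, J1, N insertions and productive excess in blood and tumors. Without rearrangements of 1 template, the family J1 difference in blood was -0.127 and tumor N insertions -0.0899.

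Leaving out each replicate in turn gave these ranges. Template shares ran from -1.09 to 0.173 for 2.5E8 against mRBC-CTRL at day 7, -0.377 to 0.608 for cured against naive after EG7.OVA, -2.14 to 1.01 for 1E9 from day 0 to 7, -0.280 to 0.561 for cured and -0.114 to 0.539 for naive mice around EG7.OVA. Rearrangement shares ran from -0.0655 to 0.292 for cured against naive after EG7.OVA and -0.152 to 0.0537 for cured mice around EL4. V segments called ran from 0 to 1 for 2.5E8 against mRBC-CTRL at day 7, 1 to 4 for 1E9 and 0 to 4 for 2.5E8 against mRBC-CTRL tumors, 0 to 1 for cured against naive before EG7.OVA, 0 to 1, 0 to 3 and 0 to 2 for mRBC-CTRL, 2.5E8 and 1E9 from day 0 to 7, 0 to 1 for cured and 1 to 2 for naive mice around EG7.OVA. Log2 fold changes from day 0 to 7 in the 2.5E8 arm ran from -0.011 to 0.14 for TCRBV13-01 and -0.086 to 0.15 for TCRBV13-03, and TCRBV13-03 ran from -0.089 to 0.15 for tumor against blood. Without naive mouse 2, TCRBV13-02 was called around EG7.OVA (log2 fold change 0.15, edgeR adjusted p = 0.0497). Depth limits the smallest library, the day 7 blood of 1E9 mouse 5, where 3 of 482 templates are 0.622%.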

Other observations

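Identical nucleotide rearrangements recurred between mice for 2 of the clones that were called around challenge; they were noticed after their values were seen. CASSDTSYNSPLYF, the TCRBV13-01 clone of cured mouse 6, was also found in cured mouse 1 at all 4 times, with 3 to 7 templates (0.0321% to 0.124%), and in the tumor of 1E9 mouse 5 with 141 of 4008 templates (3.52%). It has 1 N insertion. In cured mouse 1 it had 3 of 7591 templates before EG7.OVA and 7 of 5634 after.

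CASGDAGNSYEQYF, of TCRBV13-02 and with 3 N insertions, was found in cured mouse 1 at all 4 times, in cured mouse 5 at day 73 only, and in 1E9 mouse 4 with 2 of 6579 templates in day 7 blood and 8 of 5615 in the tumor. Of 716 family rearrangements with at least 5 templates in a library, 9 reached at least 5 templates in each of 2 or more mice (1.26%). For other V segments this held for 22 of 2175 (1.01%). At any template count the 9 of the family were found in 2 to 15 mice. By member these were 2 of 194 for TCRBV13-01, 6 of 338 for TCRBV13-02 and 1 of 184 for TCRBV13-03. Whether templates were carried over between libraries was not tested, which bears on the call of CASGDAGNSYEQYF in cured mouse 5.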
